A study of Mus musculus with 15 samples.

Results

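The mitochondrial ribosomal protein genes were taken as all genes whose symbol is Mrpl or Mrps followed by a number and, in some, a letter from a to c; pseudogenes were left out. The rule found 78 of the 55487 genes in the deposited gene table, and all 78 were annotated as protein coding. Of these, 51 belong to the large and 27 to the small subunit, with Mrps18a and Mrps30 placed in the large subunit, where their proteins sit. The libraries hold polyA RNA of TTF cells, an abbreviation usual for tail-tip fibroblasts, from female C57BL6/CAST hybrid mice, and the study compared SIRT7-KO with wild-type cells. Analysed here were 3 SIRT7-KO libraries, called KO 2, KO 9 and KO 22 after the line numbers in the table's columns, and 3 wild-type libraries with the genotype S7WT_TTF, called WT 1, WT 2 and WT 3. Both groups share the hybrid background and the sex, and the labels give no treatment, age or method of gene disruption. The other 9 libraries that the labels list, KO lines with SIRT7 added back, cells named SIRT7-HY and further KO libraries, were not analysed here. Each KO library is a line of its own, and the labels do not say whether the WT libraries come from separate cultures or animals, so p-values measure the spread between these libraries.

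The mitochondrial ribosome translates the few respiratory chain proteins encoded by mitochondrial DNA. Its RNAs are transcribed inside the organelle, whereas all of its proteins are encoded in the nucleus, made in the cytosol and imported. Many of the proteins have a counterpart in bacterial ribosomes and others were added during the evolution of mitochondria. SIRT7 is a nuclear deacylase of the sirtuin family. In other mouse cells it has been described as a partner of the transcription factors MYC and NRF1 and as a deacetylase of GABPB1, all of which act at promoters of genes for mitochondrial proteins.

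Total gene counts lay between 61065582 and 61506413 per library, and every member had at least 285 counts in each library. Sirt7 itself had 512, 694 and 787 counts in KO 2, KO 9 and KO 22, against 833, 1107 and 598 in WT 1, WT 2 and WT 3, and the groups overlapped (adjusted p = 0.515 in edgeR's quasi-likelihood test). Sirt7-201, 1 of its 9 transcripts with counts and annotated as coding, had 2, 0 and 0 estimated counts in the KO lines, against 53, 58 and 159 in the WT libraries. All coding transcripts together held 9.58% of the gene's transcript counts in KO and 18.4% in WT, so coding transcripts other than Sirt7-201 had counts in the KO lines. The KO lines differed more from each other than the WT libraries did, with a biological coefficient of variation of 0.379 in KO and 0.136 in WT. Among 10 fibroblast markers, Col1a1, Col1a2 and Col3a1, which encode fibrillar collagens, rose, and the other 7 were not called. Of the 10 estimates 5 were negative, the lowest that of Thy1, a surface glycoprotein, with 21.6, 0.195 and 71.5 CPM in KO 2, KO 9 and KO 22, against 101.0, 98.6 and 98.9 CPM in the WT libraries (log2 fold change -1.63, adjusted p = 0.479 in edgeR). The summed level of the list, most of it collagen RNA, was 25720 to 32570 CPM (counts of a gene per 1000000 gene counts of the library) in KO lines, against 16740 to 16970 CPM in WT libraries. Markers of 6 other cell types summed to 0.752 to 40.0 CPM in KO lines and 0.782 to 18.6 CPM in WT libraries, the highest being the adipocyte list, and Cdh5, Adgre1, Cd3e and Myod1 had 0 counts in all 6 libraries. What part the higher collagen level has in the CPM values below was not tested.

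All 78 members were expressed. Their mean level over the 6 libraries ran from 5.62 CPM for Mrpl53 to 153.9 CPM for Mrpl13, with a median of 40.4 CPM. Levels between genes were compared per kilobase of merged exon, since long transcripts collect more reads. On that scale Mrpl54 was the highest large subunit gene, with 158.7 CPM per kilobase in KO lines and 138.0 in WT libraries. Mrpl20, Mrpl18 and Mrpl34 came next, at 66.0, 52.4 and 63.8 CPM per kilobase in KO lines and 70.1, 76.3 and 63.1 in WT libraries. The order of these 3 is that of their mean over all libraries and differs between the groups. Mrpl18 overlaps Tcp1 on the opposite strand, which had a mean of 504.6 CPM in KO and 596.2 CPM in WT. The labels give no strand setting for the counting, so reads of this pair may not be told apart. The lowest large subunit genes were Mrpl48, Mrpl1, Mrpl15 and Mrpl32, with 2.85 to 4.09 CPM per kilobase in KO lines and 3.30 to 4.03 in WT libraries. In the small subunit Mrps21, Mrps6, Mrps7 and Mrps18c led with 72.0, 66.2, 38.0 and 27.3 CPM per kilobase in KO lines and 71.0, 47.9, 37.9 and 32.9 in WT libraries. Mrps35, Mrps10, Mrps9 and Mrps17 were lowest, between 2.75 and 4.51 CPM per kilobase in KO lines and between 2.95 and 5.24 in WT libraries. The order depends on the length used, because merged exons include rare long transcripts. With transcripts weighted by their own lengths, Mrpl54 was again first, at 404.2 TPM (transcripts per 1000000 transcripts) in KO lines and 335.5 TPM in WT libraries, whereas Mrps10 ranked 75 of 78 by merged exons and 47 of 78 by TPM.

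Most of the genes were slightly lower in SIRT7-KO cells, and a few of them passed the test. Together the 78 members held 3715, 3130 and 2860 CPM in KO 2, KO 9 and KO 22, against 3806, 3773 and 3762 CPM in WT 1, WT 2 and WT 3. The KO lines spread far more than the WT libraries did. The KO mean of 3235 ± 437 CPM was 85.6% of the WT mean of 3780 ± 22.9 CPM (SD, n = 3 each). KO 2 lay just under the WT libraries, and the distance to them was larger in KO 9 and largest in KO 22. In such bulk RNA, fewer cells of one kind and less RNA per cell cannot be told apart. In edgeR's quasi-likelihood test 4 members fell, Mrpl12, Mrpl42, Mrpl13 and Mrpl49, against a background of 3.19% of all 16678 tested genes. DESeq2 called 12 lower, against 6.78% of all genes it tested, and limma-voom 6, against 3.56%. No member rose at an adjusted p under 0.05 in edgeR, where 3.54% of all tested genes did. By DESeq2 1 member rose, against 7.48% of all genes it tested, and by limma-voom 0, against 3.05%. At an unadjusted p under 0.05 there were 19 lower and 2 higher members, against 12.5% and 13.8% of all tested genes. In 28 members every KO line was below every WT library, and in 2, Mrpl27 and Mrpl36, every KO line was above, against 20.2% and 15.7% of all tested genes.

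The shift was spread over many members rather than carried by a few. The log2 fold change of KO over WT was negative in 57 of 78 members, with a median of -0.15. For all tested genes the median was 0.02. Among the 9301 tested genes with a mean level in the range of the members, 50.1% had a negative fold change and 22.8% had every KO line below every WT library. The median was -0.13 in the large subunit and -0.15 in the small subunit. It was -0.15 for the 47 members with a bacterial counterpart and -0.13 for the 31 mitochondria-specific ones.

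**Figure D1:**
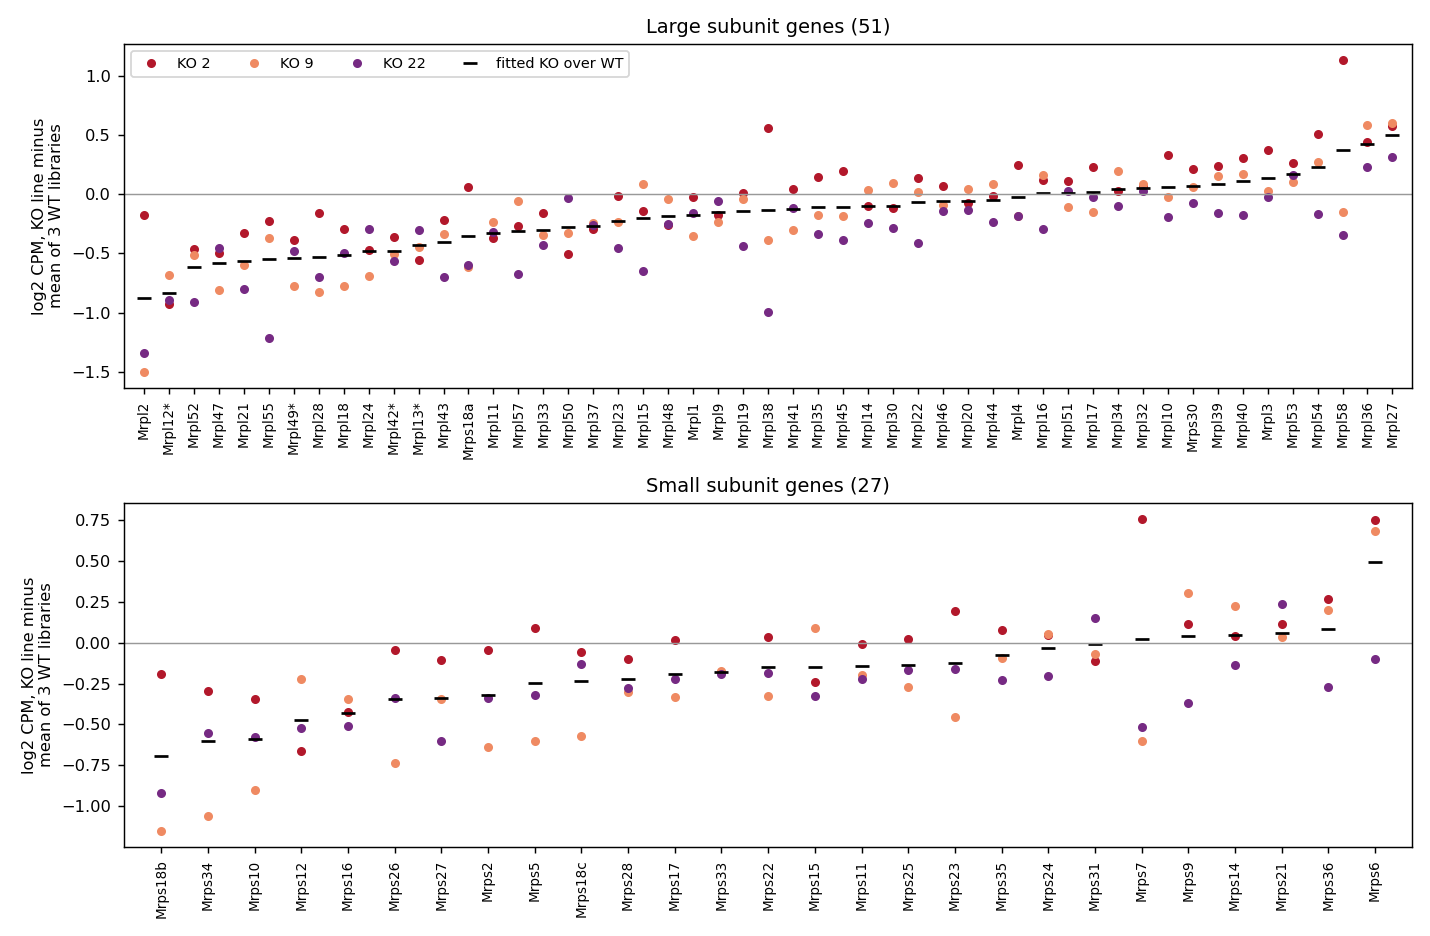
Log2 CPM of each KO line minus the mean of the 3 WT libraries (points) and the fitted log2 fold change of KO over WT (black dashes) for the 51 large and 27 small subunit genes, ordered by the fitted change; stars mark the 4 members that fell. In KO 22, 7 of 78 points lie above 0, and in KO 2 there are 37.

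The lines contributed unequally. In KO 2 the median member differed from the WT mean by -0.01 on the log2 scale, and 37 of 78 members were above that mean. KO 9 had a median of -0.21 with 24 members above the WT mean. For KO 22 the median was -0.28, and 7 members were above. Within a member, the KO lines spanned a median of 0.40 log2 units and the WT libraries 0.12, while over all tested genes these spans were 0.55 and 0.20.

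Mrpl12 showed the largest change among the called members. Its protein forms the flexible stalk of the large subunit that recruits translation factors, and it has also been described as a binding partner of the mitochondrial RNA polymerase. It had 55.1, 64.5 and 54.6 CPM in KO 2, KO 9 and KO 22, against 115.2, 101.2 and 100.7 CPM in WT 1, WT 2 and WT 3. All KO lines were thus well below all WT libraries, and the log2 fold change was -0.83 (SE 0.11, 95% interval -1.10 to -0.57, adjusted p = 0.0155 in edgeR). The transcript Mrpl12-201 carried 99.5% of the gene's transcript counts in KO and 99.4% in WT.

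Mrpl42, a mitochondria-specific protein of the large subunit, had 37.5, 33.4 and 31.5 CPM in KO 2, KO 9 and KO 22, against 47.5, 51.2 and 46.9 CPM in the WT libraries. The groups did not overlap, with a log2 fold change of -0.48 (SE 0.10, adjusted p = 0.0414 in edgeR). Mrpl13, whose protein has a counterpart in the bacterial large subunit, is the most abundant member. It had 120.7, 128.2 and 138.9 CPM in KO 2, KO 9 and KO 22, against 177.0, 182.9 and 175.9 CPM in the WT libraries. Its log2 fold change was -0.43 (SE 0.09, adjusted p = 0.0451 in edgeR), and here KO 22 was the least reduced line. Mrpl49, a mitochondria-specific large subunit protein, had 76.7, 57.8 and 69.2 CPM in KO 2, KO 9 and KO 22, against 98.8, 101.8 and 101.4 CPM in the WT libraries. It fell by 0.54 on the log2 scale (SE 0.12, adjusted p = 0.0468 in edgeR). Mrpl13 overlaps Mtbp and Mrpl49 overlaps Syvn1 on the opposite strand, and the labels give no strand setting for the counting, so reads of these pairs may not be told apart.

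The calls were lost when any 1 of the WT libraries was left out. Without WT 1, WT 2 or WT 3 edgeR called 0 members in each case and 51, 45 and 50 genes in all; 14, 13 and 13 members were then lower at an unadjusted p under 0.05. Without KO 2 there were 13 lower members, among them Mrpl12, Mrpl42, Mrpl13 and Mrpl49, besides Mrpl21, Mrpl52, Mrps7 and 6 genes on chromosome 17. Of all genes tested without KO 2, 5.14% were called lower. Without KO 22 there were 9 lower and 3 higher members, Mrpl27, Mrpl36 and Mrps6. Without KO 9 there were 4 lower members, Mrpl12, Mrpl49, Mrpl47 and Mrps16, against 3.77% of all tested genes. Mrpl42 and Mrpl13 then had adjusted p-values of 0.0566 and 0.0606 in edgeR.

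**Figure D2:**
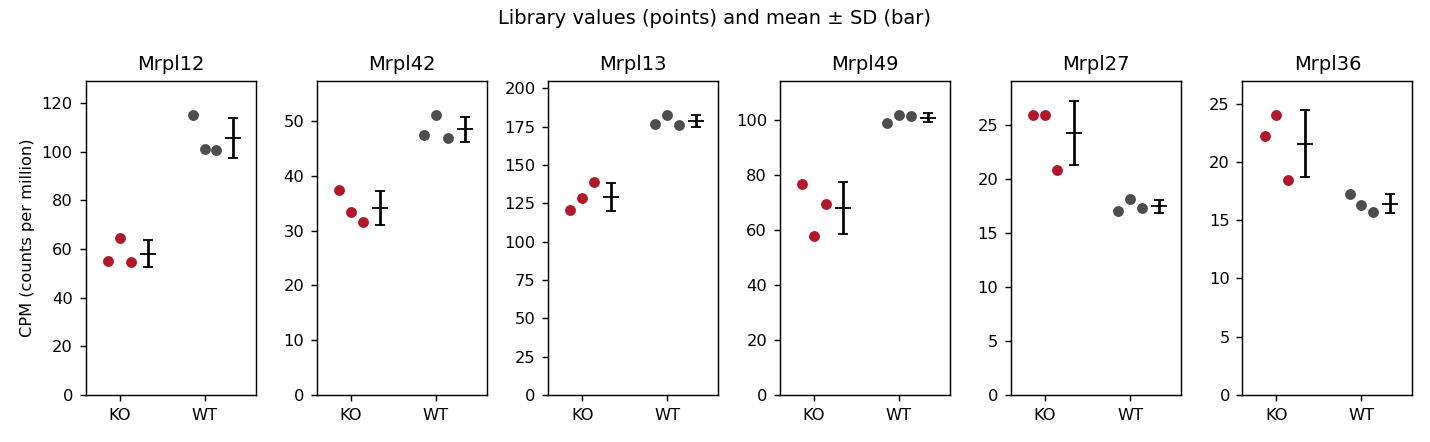
CPM of each library (points, KO lines 2, 9 and 22 and WT libraries 1, 2 and 3 from left to right) with the mean and SD of each group (bars) for the 4 members that fell and the 2 in which every KO line was above every WT library. In each panel the KO and WT points do not overlap; each vertical axis starts at 0 and has its own scale.

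Promoters from RefSeq (GRCm38.p6, 250 bases before to 50 after the start) were available for 69 of the 78 members, and not for Mrpl13. Capitals mark the letters of 5 binding motifs searched on both strands: GCGCANGC for NRF1, CCGGAAG for ETS factors such as GABP, AAGATGG for YY1, CACGTG for MYC and TGACGTCA for CREB. Those of the other members called lower, and of the 2 members in which every KO line was above every WT library, are shown so that their motifs can be set side by side. Mrpl12 lies at chr11:120484387-120484686 on the plus strand, Mrpl42 at chr10:95501900-95502199 on the minus strand and Mrpl49 at chr19:6057706-6058005 on the minus strand. Mrpl27 lies at chr11:94653541-94653840 and Mrpl36 at chr13:73330759-73331058, both on the plus strand.
Mrpl12: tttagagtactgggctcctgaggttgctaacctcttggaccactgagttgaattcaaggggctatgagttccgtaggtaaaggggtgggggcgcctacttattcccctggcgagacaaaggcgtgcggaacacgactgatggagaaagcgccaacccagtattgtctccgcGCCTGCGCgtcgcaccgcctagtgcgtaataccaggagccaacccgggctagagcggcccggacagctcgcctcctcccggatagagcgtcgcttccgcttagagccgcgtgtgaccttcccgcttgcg
Mrpl42: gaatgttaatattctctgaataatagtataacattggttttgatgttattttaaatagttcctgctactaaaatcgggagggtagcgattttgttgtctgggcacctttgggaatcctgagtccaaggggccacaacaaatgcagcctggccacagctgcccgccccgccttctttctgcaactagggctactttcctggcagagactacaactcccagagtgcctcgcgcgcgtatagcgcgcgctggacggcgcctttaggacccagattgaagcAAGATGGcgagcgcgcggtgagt
Mrpl49: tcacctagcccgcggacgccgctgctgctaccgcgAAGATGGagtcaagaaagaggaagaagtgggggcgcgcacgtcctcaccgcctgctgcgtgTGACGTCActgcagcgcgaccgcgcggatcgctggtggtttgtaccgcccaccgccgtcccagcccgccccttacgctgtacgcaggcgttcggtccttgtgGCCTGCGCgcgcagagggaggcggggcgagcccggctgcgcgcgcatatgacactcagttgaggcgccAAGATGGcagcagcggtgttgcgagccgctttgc
Mrpl27: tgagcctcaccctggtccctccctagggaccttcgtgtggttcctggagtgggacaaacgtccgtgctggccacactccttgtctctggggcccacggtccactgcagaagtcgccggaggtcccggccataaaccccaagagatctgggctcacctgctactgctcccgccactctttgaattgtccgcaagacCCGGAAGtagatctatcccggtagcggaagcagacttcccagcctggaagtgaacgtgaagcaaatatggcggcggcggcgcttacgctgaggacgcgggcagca
Mrpl36: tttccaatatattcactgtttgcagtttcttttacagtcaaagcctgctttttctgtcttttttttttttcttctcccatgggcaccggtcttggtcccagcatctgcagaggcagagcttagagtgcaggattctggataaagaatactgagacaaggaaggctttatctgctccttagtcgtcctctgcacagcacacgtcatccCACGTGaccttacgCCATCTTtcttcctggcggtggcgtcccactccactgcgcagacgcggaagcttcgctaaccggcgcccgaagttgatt

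Mrpl12 held 1 NRF1 motif, Mrpl42 1 YY1 motif, and Mrpl49 an NRF1 motif, a CREB motif and 2 YY1 motifs. Mrpl27 held an ETS motif, and Mrpl36 a YY1 and a MYC motif. Over all members with a promoter, the ETS motif was found in 26 of 69 (37.7%), against 9.93% of 27025 genes with a promoter. The NRF1 motif was found in 22 members (31.9%, against 11.2% of genes) and the YY1 motif in 13 members (18.8%, against 7.28%). The MYC motif was found in 5 members (7.25%, against 8.09%) and the CREB motif in 2 (2.90%, against 2.03%). The 27025 genes were not limited to those expressed here, whereas all members were expressed. A background of genes at similar levels was not used. None of the 5 motifs occurred in 20 of the 69 promoters.

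Members with a given motif did not separate clearly from those without it. The median log2 fold change was -0.10 in the 22 members with the NRF1 motif and -0.17 in the 47 without, and every KO line was below every WT library in 6 and 19 of them. For the ETS motif the medians were -0.21 in 26 members with it and -0.13 in 43 without, with 11 and 14 members in which every KO line was below. For YY1 they were -0.27 in 13 with it and -0.14 in 56 without. These are descriptions of letters in a window, without a test.

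Among the large subunit genes that missed the threshold, Mrpl52, Mrpl47 and Mrpl21 were closest on the lower side. Mrpl52, a mitochondria-specific protein, had 50.6, 48.1 and 35.7 CPM in KO 2, KO 9 and KO 22, against 73.4, 67.7 and 69.2 CPM in the WT libraries (log2 fold change -0.62, adjusted p = 0.0502 in edgeR). Mrpl47, which has a bacterial counterpart, had 21.6, 17.1 and 21.5 CPM in KO lines, against 29.9, 32.7 and 29.6 CPM in WT libraries (-0.58, adjusted p = 0.0502). It was called lower with the other scalings tried in edgeR. Mrpl21 had an estimate of -0.56 (adjusted p = 0.0606 in edgeR), and its KO and WT values did not overlap. On the opposite strand Mrpl47 overlaps Ndufb5 and Actl6a, and Mrpl21 overlaps Ighmbp2, with the limit given above for Mrpl13 and Mrpl49. The largest negative estimate of all members belonged to Mrpl2, whose bacterial counterpart lies next to the peptidyl transferase centre. It had 64.9, 25.5 and 27.9 CPM in KO 2, KO 9 and KO 22, against 77.9, 70.6 and 72.7 CPM in the WT libraries. The fold change of -0.88 had an SE of 0.35 (adjusted p = 0.172 in edgeR), because KO 9 and KO 22 were far below the WT libraries and KO 2 was close to them.

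The higher members were few. Mrpl27, a counterpart of the bacterial protein that reaches into the peptidyl transferase centre, had 25.9, 25.9 and 20.8 CPM in KO 2, KO 9 and KO 22, against 16.98, 18.1 and 17.3 CPM in the WT libraries. Its log2 fold change was 0.50 (SE 0.12, adjusted p = 0.0608 in edgeR). Mrpl36 had 22.2, 24.1 and 18.4 CPM in KO lines, against 17.3, 16.3 and 15.7 CPM in WT libraries (0.42, SE 0.13, adjusted p = 0.105). Mrpl54 and Mrpl53, both mitochondria-specific, had estimates of 0.23 and 0.17 with overlapping groups (adjusted p = 0.434 and 0.541). Mrpl27 overlaps Eme1 and Mrpl36 overlaps Ndufs6 on the opposite strand, with the same limit. The pseudogene Mrpl27-ps had 3.57, 4.23 and 2.25 CPM in KO 2, KO 9 and KO 22, against 2.69, 3.16 and 2.94 CPM in the WT libraries, and the groups overlapped.

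No small subunit gene passed edgeR's test, and 21 of 27 had a negative estimate. At an unadjusted p under 0.05 there were 5 lower and 0 higher, against 12.5% and 13.8% of all tested genes. DESeq2 called 3 lower, against 6.78% of all genes it tested. With limma-voom 0 were lower, against 3.56%, and 1 with group weights, against 3.75%. Mrps16, which has a bacterial counterpart, came closest, with 48.8, 50.8 and 44.2 CPM in KO 2, KO 9 and KO 22, against 69.9, 65.3 and 62.2 CPM in the WT libraries. All KO lines lay below all WT libraries (log2 fold change -0.43, SE 0.10, adjusted p = 0.0502 in edgeR). Mrps6 had the highest estimate of the subunit at 0.49 (SE 0.22, adjusted p = 0.213). It had 122.9, 115.8 and 65.8 CPM in KO 2, KO 9 and KO 22, against 72.5, 73.9 and 74.0 CPM in the WT libraries, so that KO 2 and KO 9 were above and KO 22 was below them. Mrps6 overlaps Slc5a3 on the same strand, with a mean of 62.4 CPM in KO and 52.7 CPM in WT. Counts of Mrps6 may therefore include reads of Slc5a3. Mrps21 had 53.5, 49.8 and 56.3 CPM in KO lines and 30.7, 67.4 and 59.3 CPM in WT libraries, where WT 1 stood apart from the other WT libraries.

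Differences between members followed their chromosomes in part. All 8 members on chromosome 17 had negative fold changes, with a median of -0.56, and the median of all 843 tested genes of that chromosome was -0.29. The 8 genes were Mrpl2, Mrpl14, Mrpl18, Mrpl28, Mrps10, Mrps18a, Mrps18b and Mrps34. Their median relative to WT was -0.18 in KO 2, -0.87 in KO 9 and -0.59 in KO 22, while all tested genes of the chromosome had medians of -0.18, -0.46 and -0.24. Mrps18b, for example, had 51.4, 26.0 and 29.9 CPM in KO 2, KO 9 and KO 22, against 56.8, 57.0 and 63.2 CPM in WT libraries. On chromosome 16 Mrpl39, Mrpl40 and Mrps6 all had positive estimates, and the median of all genes there was 0.20. Without the members on chromosome 17, 4 of 70 were called and the summed level of the rest was 88.3% of the WT level.

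Taken against the median of its own chromosome, the fold change was negative in 66 of 78 members, with a median of -0.15, where 49.9% of all tested genes are below by construction. By line, 38, 65 and 72 of 78 members were below the chromosome median of KO 2, KO 9 and KO 22, with medians of 0.01, -0.18 and -0.30. Without this subtraction the medians were -0.01 in KO 2, -0.21 in KO 9 and -0.28 in KO 22. With these medians as an offset in edgeR, Mrpl12 and Mrpl42 were still called, while Mrpl13 (-0.20) and Mrpl49 (-0.32) were not.

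**Figure D3:**
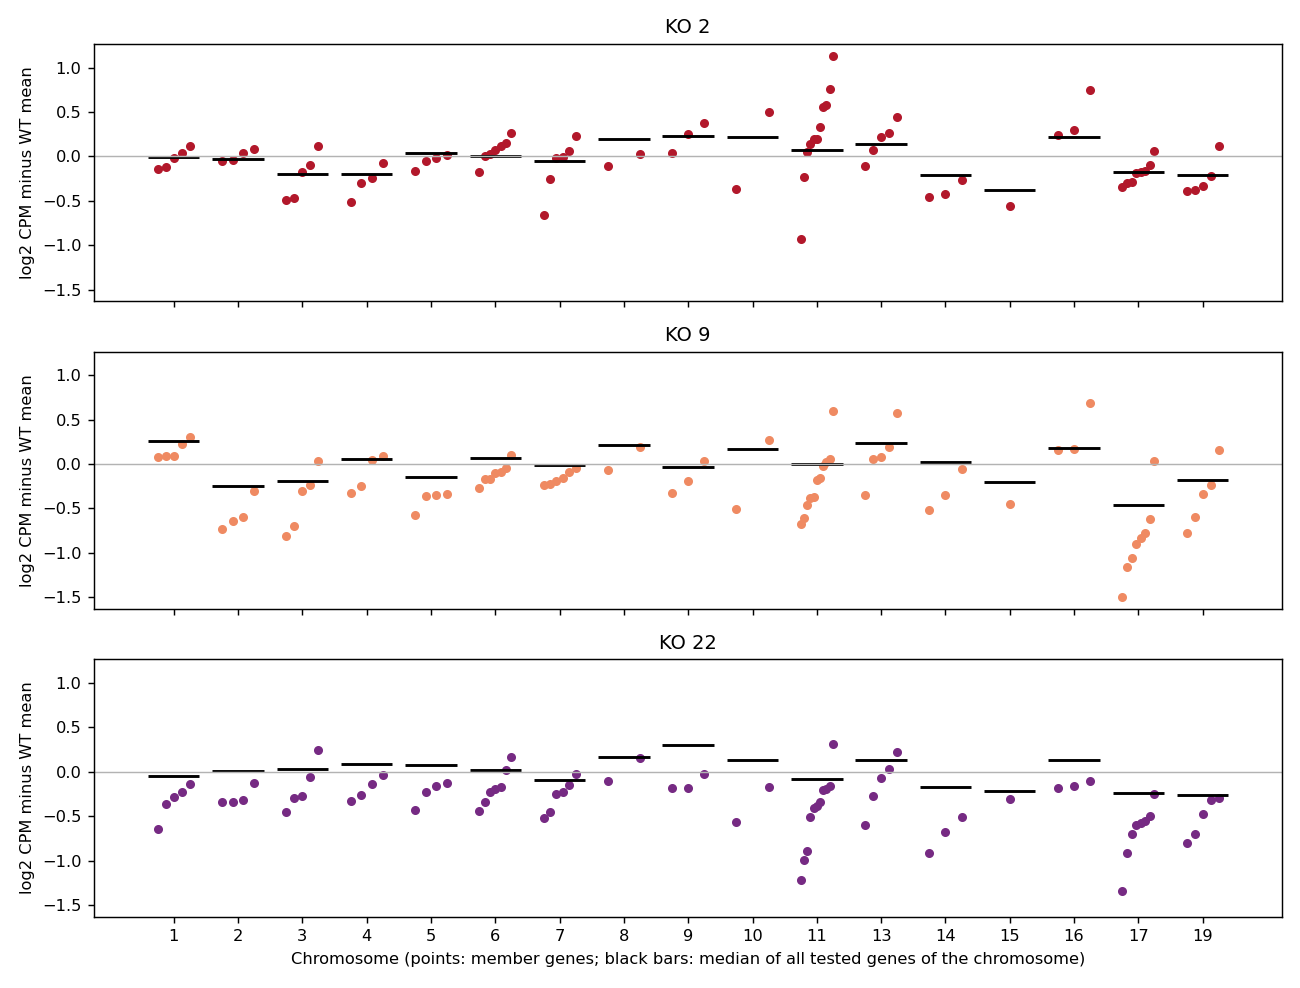
Log2 CPM minus the WT mean for each member (points) by chromosome, in KO 2, KO 9 and KO 22 (panels), with the median of all tested genes of the chromosome (black bars). In KO 9 and KO 22 most points lie below their bars, and chromosome 17 has the lowest values in KO 9.

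Mrpl12 lies on chromosome 11, 129307 bases from Sirt7, and 9 tested genes lie between them. Of the 31 tested genes from 150 kb before Mrpl12 to 150 kb after Sirt7, Mrpl12 was the one called lower and Cbr2 the one called higher, with a median log2 fold change of -0.30; Cbr2 is named because of this count. The hybrid background adds a second reading: reads that cover a base difference were assigned by the authors to genome 1 or genome 2, and the labels do not name the strain behind either one. In KO 2, KO 9 and KO 22, Mrpl12 had 1985, 789 and 1325 genome 1 counts, against 2242, 2006 and 2140 in WT 1, WT 2 and WT 3. Genome 2 counts were 0, 1464 and 727 in the KO lines, against 1706, 1697 and 1528 in the WT libraries. KO 2 thus had 0 of 1985 allele-assigned counts from genome 2, which allows a share of up to 0.151%, and its genome 1 counts lay just under those of WT. In KO 9 and KO 22 both genomes gave fewer counts than in any WT library.

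The loss of genome 2 reads in KO 2 was shared by the genes around Mrpl12. Of 79 allele-tested genes with starts at -2.60 to 1.08 Mb relative to that of Sirt7, 71 had at least 95% genome 1 counts in KO 2, against 0 in KO 9, 0 in KO 22 and 0 or 1 in each WT library. The median genome 1 share there was 100% in KO 2, 33.4% in KO 9 and 65.9% in KO 22, against 56.3% to 57.4% in WT libraries. The median difference of total level from the WT mean was -0.70 in KO 2, with 83 of 89 tested genes below, and -0.04 in KO 9 and -0.20 in KO 22. Mrpl12 differed by -0.93, -0.68 and -0.89 in the same lines. It was therefore near its neighbourhood in KO 2 and further below it in KO 9 and KO 22.

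A stretch nearer the centromere, with gene starts at -7.57 to -3.77 Mb relative to that of Sirt7, holds Mrpl58, Mrps7 and Mrpl38, and there KO 2 differed in the opposite direction. Mrpl58 encodes a peptidyl-tRNA hydrolase that is built into the large subunit and frees stalled ribosomes. It had 43.2, 17.4 and 14.9 CPM in KO 2, KO 9 and KO 22, against 18.9, 19.9 and 20.5 CPM in WT libraries. Mrps7 had 132.4, 50.7 and 52.8 CPM in KO lines and 80.0, 77.0 and 78.7 CPM in WT libraries. Mrpl38 had 69.6, 35.8 and 23.0 CPM in KO lines and 49.3, 46.2 and 47.3 CPM in WT libraries. In each of the 3 genes KO 2 was above and KO 9 and KO 22 were below all WT libraries, and none was called (adjusted p of 0.589 to 0.975 in edgeR). All 74 tested genes of the stretch had a median of 0.74 in KO 2, -0.11 in KO 9 and -0.25 in KO 22, and their median genome 1 share was 29.8% in KO 2, 26.8% in KO 9 and 59.7% in KO 22, against 48.6% to 49.3% in WT libraries. The share of genome 1 was thus low in KO 9 too, where the level was not raised. The limits of both stretches were drawn after the values were seen. DNA was not measured in these libraries, and what underlies these regional levels was not tested.

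**Figure D4:**
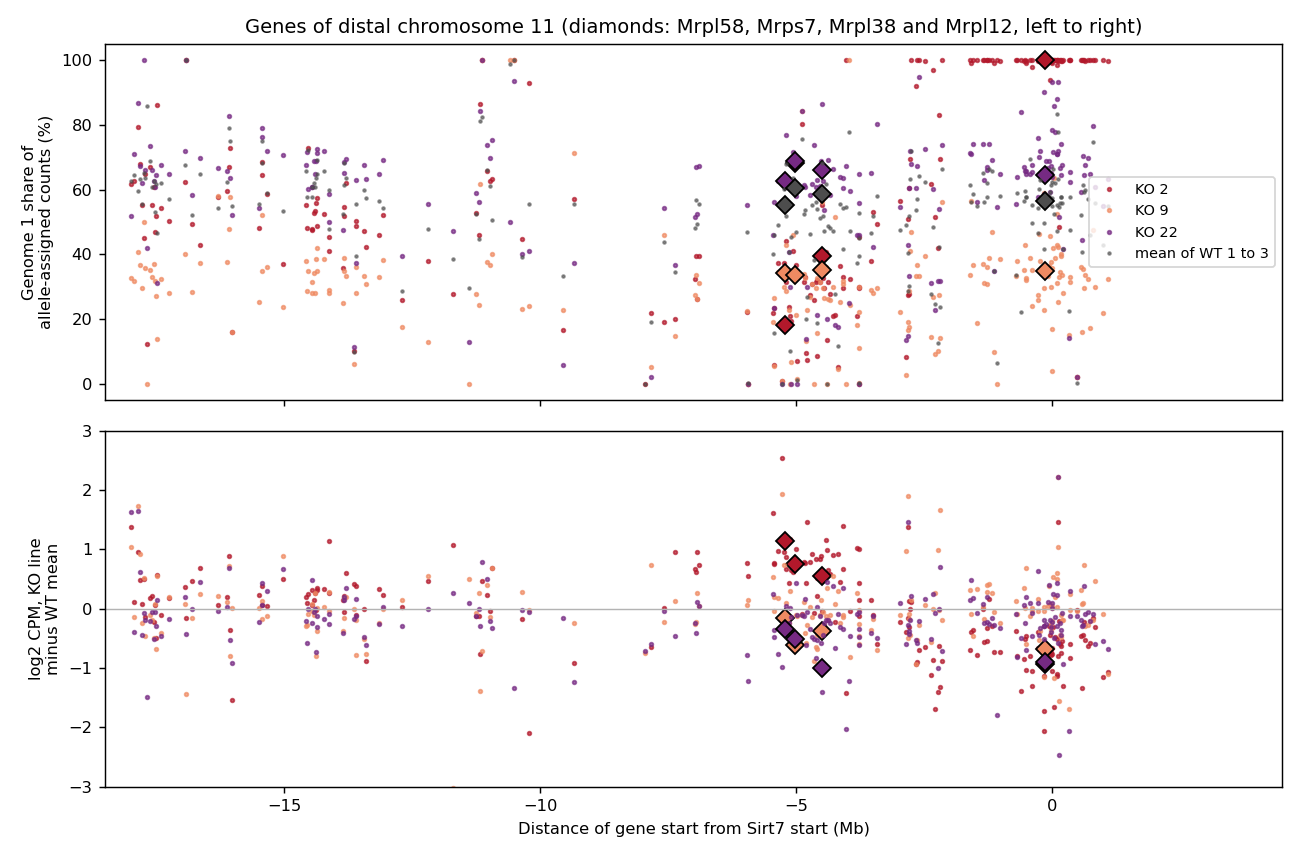
Genome 1 share of allele-assigned counts (top, percent) and log2 CPM of each KO line minus the WT mean (bottom) for 224 allele-tested genes of distal chromosome 11, by distance of the gene start from the start of Sirt7 in Mb; diamonds are members, grey is the WT mean. KO 2 points sit near 100% around Sirt7 and Mrpl12, and its total levels lie below 0 there and above 0 near Mrpl58, Mrps7 and Mrpl38; 19 points beyond 3 log2 units are not drawn.

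Allelic ratios could be tested for 73 members, which reached 20 allele-assigned counts on average over the 6 libraries; Mrpl21, Mrpl22, Mrpl30, Mrps14 and Mrps36 had fewer. The ratio of genome 1 to genome 2 changed in 29 of 73 members, 16 toward genome 1 and 13 toward genome 2, against a background of 23.0% of 12984 tested genes. All 29 went in the direction of the median of their chromosome. All 7 tested members on chromosome 6 moved toward genome 1, namely Mrpl19, Mrpl35, Mrpl51, Mrpl53, Mrps25, Mrps33 and Mrps35. So did Mrpl15, Mrpl44 and Mrps9 on chromosome 1, Mrpl9, Mrpl24, Mrpl47 and Mrps28 on chromosome 3, Mrps22 on chromosome 9 and Mrpl54 on chromosome 10. Toward genome 2 moved all 6 members on chromosome 7 (Mrpl17, Mrpl23, Mrpl46, Mrpl48, Mrps11 and Mrps12), all 3 on chromosome 16 (Mrpl39, Mrpl40 and Mrps6), Mrpl11, Mrpl16 and Mrpl43 on chromosome 19 and Mrps31 on chromosome 8.

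With the chromosome medians taken out, edgeR called 0 of the 73 members, with 3 at an unadjusted p under 0.05, and 22 genes in all. The median size of the change over the members was 0.86 on the log2 scale, and 0.13 after its chromosome's median was subtracted. Without WT 1, WT 2 or WT 3 the members called were 7, 8 and 8 toward genome 1 and 8 in each case toward genome 2. Single-library shares had a median 95% Wilson half-width of 2.62 percentage points, for counting error alone, and at most 21.0 for the members with the fewest reads.

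The largest differences of share were those of Mrpl53, Mrpl35, Mrpl23 and Mrps25. Mrps25, a mitochondria-specific small subunit protein, had 73.4% ± 2.51 genome 1 counts in KO and 41.7% ± 0.765 in WT (SD, n = 3 each), with an adjusted p of 0.00144 in the edgeR allelic model. Mrpl35 had 71.4% ± 9.06 in KO and 36.2% ± 3.75 in WT (adjusted p = 0.0143 in the edgeR allelic model). On chromosome 7, Mrpl23 had 26.9% ± 4.03 in KO and 59.97% ± 4.42 in WT (adjusted p = 0.00292 in the edgeR allelic model). The genome 1 share of all allele-assigned counts of chromosome 6 was 61.4% to 63.3% in KO lines and 36.0% to 36.2% in WT libraries, and on chromosome 7 it was 31.6% to 31.8% in KO lines and 56.9% to 58.3% in WT libraries.

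Mrpl53 had the largest difference of share. It had 637, 623 and 228 genome 1 counts in KO 2, KO 9 and KO 22, against 73, 101 and 91 in the WT libraries, while its genome 2 counts were 27, 72 and 68 in KO lines and 186, 196 and 200 in WT libraries. The log2 allelic change was 4.25 (SE 0.71, adjusted p = 0.00811 in edgeR), against a chromosome median of 1.62; with the chromosome medians taken out it was 2.63 and not called (adjusted p = 0.330 in edgeR). Its total level did not pass the test. The allele-assigned counts of Mrpl53 came to 664 and 695 in KO 2 and KO 9, more than its gene counts of 388 and 345, and 5 of the 78 members had such an excess in at least 1 library. Mrpl53 overlaps Gm42688 on the same strand, so its split reads may include reads of that gene.

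Of the 4 members that fell, none passed the allelic test over all 6 libraries. Mrpl42 was called without KO 2, Mrpl13 without KO 9 and Mrpl49 without WT 3. Mrpl13 had 2708, 3943 and 2372 genome 1 counts in KO 2, KO 9 and KO 22, against 5370, 5441 and 5327 in the WT libraries, so all KO lines were lower for that genome. Its genome 2 counts of 3640, 2785 and 4896 in KO lines overlapped the 3852, 4105 and 3921 in WT libraries. For Mrpl42 the genome 2 counts were 1150, 818 and 818 in KO lines, against 1676, 1759 and 1395 in WT libraries, and its genome 1 counts of 256, 314 and 299 overlapped the 312, 244 and 296 of WT. Mrpl49 had 19, 13 and 20 genome 1 counts in KO lines, against 698, 803 and 30 in WT 1, WT 2 and WT 3. WT 3 was thus near the KO lines for this genome although its total count was like those of WT 1 and WT 2. Mrps5 and Mrps26 had nearly all allele-assigned counts from genome 1 in all 6 libraries.

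**Figure D5:**
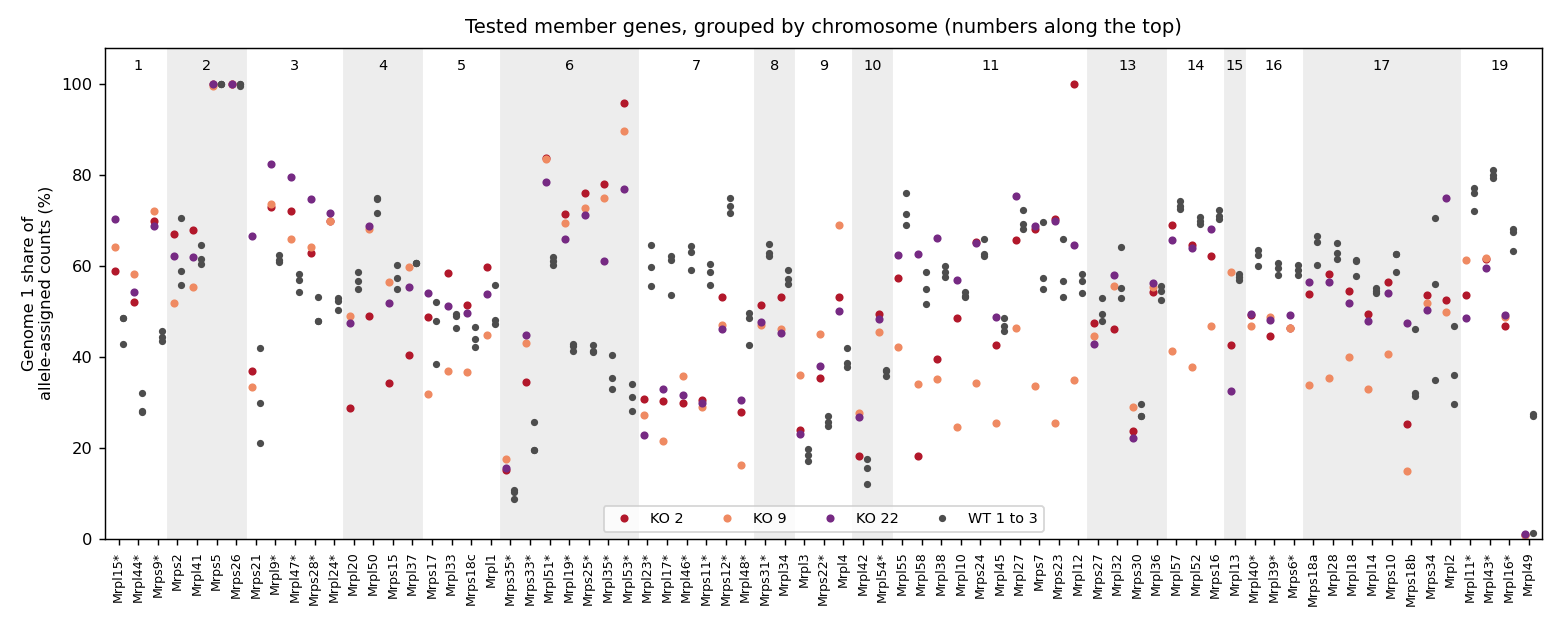
Genome 1 share of allele-assigned counts in percent for the 73 tested members, grouped by chromosome, with the 3 KO lines in colour and the 3 WT libraries in grey; stars mark the 29 members whose ratio changed. In the starred members of chromosomes 1, 3 and 6 all KO points lie above all WT points, and in those of chromosomes 7, 16 and 19 all lie below; Mrpl12 has a KO 2 point at 100%.

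Estimated transcript counts showed a change of make-up in a few members, given as shares without a test and chosen after the values were seen. The share of a group pools the counts of its libraries, so libraries with more counts weigh more. In Mrpl48 the transcript Mrpl48-202, annotated for nonsense-mediated decay, held 13.3% of the counts in KO and 40.9% in WT. Its share was 3.37%, 31.6% and 1.66% in KO 2, KO 9 and KO 22, and 37.7% to 43.0% in the WT libraries. The coding transcript Mrpl48-208 held 59.8% in KO and 27.7% in WT. In Mrpl1 the coding transcript Mrpl1-201 held 23.5% in KO and 68.0% in WT, and Mrpl1-202, also coding, 38.8% in KO and 2.002% in WT. Mrps2-203 is a transcript without a coding annotation. It had 2114, 30 and 1493 counts in KO 2, KO 9 and KO 22, against 2377, 2292 and 2385 in WT libraries. All KO lines were thus below all WT libraries, and KO 9 was by far the lowest. The share of coding transcripts was 84.1% in KO and 57.6% in WT for Mrpl48 and 55.7% in KO and 42.3% in WT for Mrps2. It differed the other way in Mrpl58, with 63.2% in KO and 77.6% in WT, and in Mrpl21, with 56.0% in KO and 67.7% in WT. KO 2 had the highest level of Mrpl58 and so weighed most in its KO share. Coding transcripts held the smallest shares in Mrps34, Mrpl53 and Mrpl38, with 3.30%, 3.14% and 16.3% in KO and 2.76%, 3.15% and 16.0% in WT. Most estimated transcript counts of these 3 members thus lay in transcripts without a coding annotation.

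Subunit proteins whose symbols fall outside the rule were in the same range. Of Dap3, Ptcd3, Chchd1, Aurkaip1, Gadd45gip1 and Oxa1l, a translocase bound to the ribosome, edgeR, DESeq2 and limma-voom called 0. At an unadjusted p under 0.05 in edgeR 1 of the 6 was lower, against 12.5% of all tested genes. All 6 estimates were negative, with a median of -0.20. Chchd1 had 36.2, 37.5 and 27.8 CPM in KO lines and 44.6, 45.2 and 43.8 CPM in WT libraries (adjusted p = 0.129 in edgeR), and Dap3, Ptcd3 and Oxa1l had adjusted p-values of 0.220 to 0.346.

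Of 33 tested factors for assembly of the mitochondrial ribosome and modification of its RNAs, 1 rose and 2 fell, against 3.54% and 3.19% of all tested genes. DESeq2 called 1 higher and 4 lower, against 7.48% and 6.78% of all genes it tested. Grsf1, an RNA-binding protein of mitochondrial RNA granules, had 80.9, 72.0 and 79.2 CPM in KO 2, KO 9 and KO 22, against 51.8, 51.1 and 51.5 CPM in the WT libraries, without overlap (log2 fold change 0.62, SE 0.09, adjusted p = 0.0173 in edgeR). Lrpprc, which stabilises mitochondrial messenger RNAs, had 86.0, 64.2 and 60.97 CPM in KO lines, against 106.7, 112.7 and 108.1 CPM in WT libraries (-0.60, adjusted p = 0.04995). Mief1, an adaptor of mitochondrial fission whose messenger RNA also encodes a small protein of ribosome assembly, fell by 0.49 on the log2 scale (adjusted p = 0.0463). Mrm3, a methyltransferase of the large mitochondrial ribosomal RNA, had an estimate of -0.68 (adjusted p = 0.0626 in edgeR). Of the 33 estimates 24 were negative, with a median of -0.16.

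None of 16 tested mitochondrial translation factors was called by edgeR, DESeq2 or limma-voom. At an unadjusted p under 0.05 in edgeR there were 1 higher and 1 lower, against 13.8% and 12.5% of all tested genes. Gfm1, an elongation factor, had 83.2, 59.6 and 74.0 CPM in KO lines and 95.1, 93.7 and 93.2 CPM in WT libraries (adjusted p = 0.151 in edgeR). Guf1, Mtfmt and Pdf followed with estimates of 0.28, 0.33 and -0.52 (adjusted p of 0.175 to 0.275 in edgeR). Of the 16 estimates 6 were negative, with a median of 0.07. Of 21 genes for transcription and maintenance of mitochondrial DNA, edgeR and limma-voom called 0. DESeq2 called 1 higher and 1 lower, against 7.48% and 6.78% of all genes it tested. At an unadjusted p under 0.05 in edgeR 2 were higher and 2 lower, against 13.8% and 12.5% of all tested genes. Twnk, Mterf2, Mgme1 and Primpol had estimates of -0.44, 0.71, -0.39 and 0.49 (adjusted p of 0.0879 to 0.155 in edgeR). Of the 21 estimates 15 were negative, with a median of -0.07.

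Of 20 transcription factors and coactivators of genes for mitochondrial proteins in the table, 16 were tested. Of these 2 fell, against 3.19% of all tested genes, and DESeq2 called 4 of 17 lower, against 6.78% of all genes it tested. Estimates were negative in 8 of the 16, with a median of -0.02. Pprc1, a coactivator related to PGC-1alpha, had 57.2, 50.4 and 40.4 CPM in KO 2, KO 9 and KO 22, against 71.0, 100.1 and 100.5 CPM in the WT libraries (log2 fold change -0.85, SE 0.18, adjusted p = 0.0427 in edgeR). Ppargc1a, which encodes PGC-1alpha itself, was barely detected, with 4, 1 and 0 counts in KO lines and 18, 28 and 21 in WT libraries (adjusted p = 0.0427 in edgeR). Ppargc1a passed the filter on low counts only through the WT libraries. The direction of its call was thus set by that filter and is no support for the count of 2. Myc had 50.2, 41.0 and 34.2 CPM in KO lines and 63.2, 63.6 and 70.8 CPM in WT libraries (-0.63, adjusted p = 0.0534), and Ppard had an estimate of -0.51 (adjusted p = 0.0935).

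The RNAs made inside mitochondria were mostly lower too. The ribosomal RNA gene mt-Rnr2, of the large subunit, had 355.6, 330.6 and 291.2 CPM in KO 2, KO 9 and KO 22, against 535.4, 549.8 and 561.5 CPM in the WT libraries (log2 fold change -0.72, SE 0.09, adjusted p = 0.0124 in edgeR). The groups were far apart. For mt-Rnr1, of the small subunit, the values were 141.2, 76.8 and 77.4 CPM in KO lines and 141.2, 124.5 and 136.2 CPM in WT libraries, and KO 2 overlapped with WT (adjusted p = 0.321 in edgeR). Both were read in polyA-selected RNA, which captures ribosomal RNA only in part. Of 13 mitochondrially encoded proteins, mt-Nd1 and mt-Nd2, subunits of respiratory complex I, fell by 0.55 and 0.78 on the log2 scale (adjusted p = 0.0372 and 0.0330 in edgeR). These are 2 of 13 lower, against 3.19% of all tested genes. DESeq2 called 4, limma-voom 2 and limma-voom with group weights 1, against 6.78%, 3.56% and 3.75% of all genes tested by each. All 13 estimates were negative; mt-Nd3 and mt-Nd4l came next with -0.81 and -0.49 (adjusted p = 0.0608 and 0.102).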

How the data were processed

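PolyA RNA was extracted with TRIZOL and sequenced by BGI, per the labels' protocols. Tools named in the submitters' processing notes, without their roles, are StringTie 1.3.3, HISAT2 2.1.0, DESeq2 1.32.0, Trimmomatic 0.36, FastQC 0.11.3 and SAMtools 0.1.19, and the builds are GRCm38 and mm10. Deposited by the authors were estimated counts for genes, for transcripts and, split by genome, for genes again. All are whole numbers and were used as deposited. The labels give neither annotation nor strand nor counting settings. Of the split counts, the columns of unassigned reads, 6 in number, were not used. KO columns name a line but could be either of 2 sets of KO libraries, so they were used as replicates of the group.

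Of 55487 genes, 55227 matched GENCODE M21 (GRCm38); the other 260 held 0.0319% of counts. KO and WT were compared with edgeR 4.0.16 (R 4.3.3), quasi-likelihood test, TMM scaling, filterByExpr and Benjamini-Hochberg adjustment over 16678 genes; an adjusted p under 0.05 was called. Line differences are log2 CPM over TMM library sizes with a prior count of 0.5. Allelic ratios were tested in edgeR by the interaction of allele and group, with a term for each library, over 12984 genes that averaged 20 or more allele-assigned counts. Alternatives used limma 3.58.1 and DESeq2 1.42.0. Both fits were tested on simulated data with large changes and the same spread in KO and WT. The real groups differ in spread, so the simulation does not show how the fits perform on them. Between KO lines the log2 CPM correlated with Pearson's r of 0.968 to 0.980, and between WT libraries with 0.994 to 0.995, and the biological coefficient of variation, which leaves counting error aside, was 0.379 and 0.136, so no pair was treated as 1 library.

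Members, lists, roles and the rule for named genes were chosen with earlier results of these data known. The rule named every called member, the 5 members with the smallest p in each direction, the 4 highest and 4 lowest of each subunit per kilobase, the 4 largest differences of genome 1 share, and from each companion list the called genes or up to 4 by p, with Sirt7, mt-Rnr1 and mt-Rnr2. Mrpl2, Mrpl21, Mrpl38, Mrpl52, Mrpl58, Mrps2, Mrps5, Mrps18b and Mrps26 were named after their values were seen. Listed symbols with no match in the table were Gtpbp5, Mtrfr and Map1d.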

Additional observations from a re-analysis of the deposited data

How the results depend on the processing

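Of the members called lower (4), edgeR with no filter on low counts called 1 and with chromosome medians taken out 2, limma-voom with group weights 9, and DESeq2 12 with 1 higher against 0. Other scalings in edgeR gave 5 and limma-voom 6. Leaving out 1 library each gave 0 to 13 lower and 0 to 3 higher members, 0 lower without any of the WT libraries. For all genes called, 1123 in all, DESeq2 gave 2559, no filter 396, chromosome medians taken out 666, leaving out KO 22 2482 and the WT libraries 45 to 51. For allelic ratios, taking out chromosome medians left 0 toward genome 1 and 0 toward genome 2, against 16 and 13; leaving out 1 library gave 7 to 18 toward genome 1 and 8 to 16 toward genome 2, the lowest counts without a WT library. Coverage minimums of 10 and 50 and limma on the logit share gave 15 or 16 and 13. The summed level of the members, 85.6% of WT, ran from 79.2% without KO 2 to 90.5% without KO 22; 2 further ways of summing, chosen after seeing the data, gave 88.3% (no chromosome 17 members) and 89.7% (TPM). None of the 10 members recomputed one by one changed sign; over all 78, negative estimates numbered 52 (without KO 22) to 66 (chromosome medians taken out), against 57. Where calls were lost or gained the cause was not tested. Leaving out any library leaves fewer residual degrees of freedom, and no filter tests more genes. Genes called numbered 1662, 1256 and 2482 without KO 2, KO 9 and KO 22. They numbered 51, 45 and 50 without WT 1, WT 2 and WT 3. Of the 78 members, 5 stayed under the minimum of 20 allele-assigned counts, although every member had at least 285 gene counts in each library. Mrpl22 had 0 allele-assigned counts in every library. No paired analysis was possible because the KO columns carry line numbers that no WT library shares.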
